A study of Mus musculus with 2 samples.

Results

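Stromal cells of mouse inguinal white adipose tissue (iWAT) that carried the most mRNA of Mylpf, Penk, Grem1 and Il11 were described in one single-cell library. Members were chosen by the share of a cell's molecules that came from these 4 genes. A cell was eligible if it had over 200 and under 7500 detected genes, under 30% mitochondrial molecules, no molecule of Epcam, Ptprc, Pecam1 or Sox10 (genes of epithelial, immune, endothelial and Schwann cells) and at least 1 molecule of Col1a1, the main collagen chain of fibroblasts. The 3% of eligible cells with the highest share became members, which gave 675 members among 22496 eligible cells and 29962 cell barcodes in iWAT. Molecules were counted as unique molecular identifiers (UMIs), so that PCR copies count once.

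The cells were primary cultures of the stromal vascular fraction of wild-type C57BL/6N mice aged 8 to 12 weeks, from pooled tissue, grown to 80% confluency. Per the labels, an untreated culture stood beside cultures given 5.5 nM of FGF1, of FGF2 or of FGF8 over 48 h, and the cells of all 4 treatments were tagged and merged into 1 library for each depot. A second library held cells of interscapular brown adipose tissue (iBAT) prepared in the same way. The published methods name vehicle, FGF1 and FGF2 and give a narrower age range, and these differences were not resolved. No table tying cells to treatments was used here, so how many members came from each treatment is unknown, and treated and untreated cells cannot be told apart. With 1 library for each depot and no replicate, no test was possible. Every interval given is an exact 95% interval for counting error alone and says nothing of the spread between cultures or mice.

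Grem1 encodes gremlin 1, a secreted protein that binds bone morphogenetic proteins (BMPs) and keeps them from their receptors. Il11 encodes interleukin 11, a cytokine of the IL-6 family that signals through the shared receptor chain gp130 and is produced by fibroblasts under growth factor and TGF-beta signalling. Penk encodes proenkephalin, the precursor of opioid peptides, and Mylpf encodes a regulatory light chain of the myosin of fast skeletal muscle. In adipose tissue the fibroblast-like stromal compartment holds the precursors of adipocytes, in which BMP signalling favours differentiation and FGF signalling through ERK favours proliferation.

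The 4 genes did not contribute alike to the choice. Grem1 supplied 81.8% of the members' UMIs of the 4 genes, Il11 15.8%, Mylpf 1.44% and Penk 0.963%. Grem1 stood at 2504 CPM (UMIs of a gene per 1000000 UMIs) in members and at 217 CPM in the remaining cells of equal depth, and 663 of 675 members had a Grem1 UMI. Il11 stood at 483 CPM against 41.2 CPM, and 419 members had an Il11 UMI. These values are what the members were selected on, so they describe the choice and support nothing.

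Mylpf went against the label of the state. Of the 549 Mylpf UMIs in members, 504 came from 4 cells with 183, 156, 91 and 74 UMIs each, and no other member had more than 2. Those 4 cells had 0 Grem1 and 0 Il11 UMIs, and they were the only eligible iWAT cells with 5 or more Mylpf UMIs. When Mylpf was left out of the rule, 664 of the 675 members stayed and Mylpf itself was at 0.873 times (0.618 to 1.20) its level in the remaining cells of equal depth. The other genes did move with the rule that left them out. Penk was 2.27-fold (1.99 to 2.57) higher in cells chosen without it, Il11 3.23-fold (3.09 to 3.37) and Grem1 2.45-fold (2.40 to 2.50). Below, the cells are called members. Grem1 led the score in 581 of them, and 419 of 675 had an Il11 UMI.

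**Figure D1:**
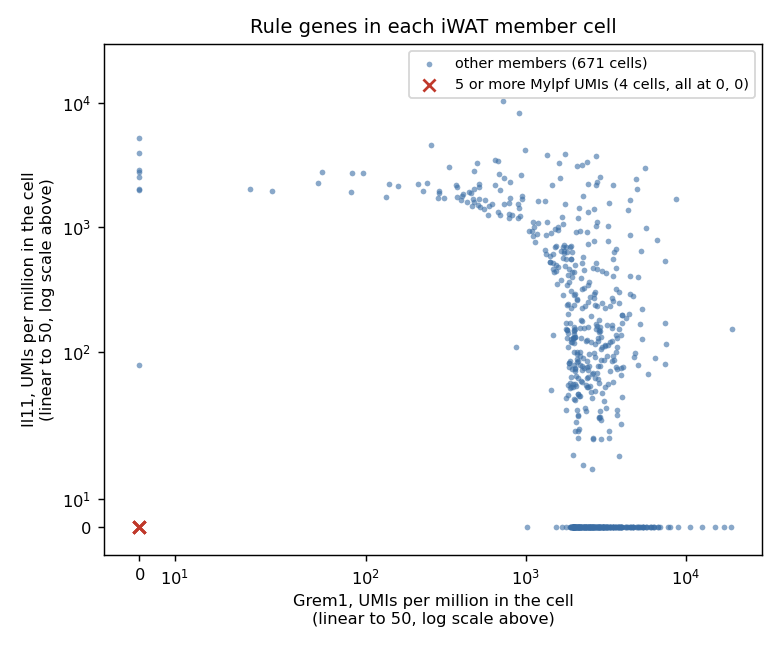
Grem1 (x axis) and Il11 (y axis) in each of the 675 members, in CPM of the cell, on axes that are linear to 50 and logarithmic above; each point is a cell. Most members lie at high Grem1 with Il11 from 0 upward, a smaller number lie at high Il11, and the 4 crosses at 0, 0 are the cells with 5 or more Mylpf UMIs; apart from these and 1 member with no Grem1 and 78.2 CPM of Il11, the lower left corner is empty because of the rule.

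The cut was drawn through a continuous range of cells. The member with the lowest share had 1938.3 CPM of the 4 genes and the highest cell outside had 1938.24 CPM, with 138 members and 164 other cells within 10% of the cut. The median was 2634 CPM over members and 114 CPM over all eligible cells, of which 27.9% had no UMI of the 4 genes. Members had a median of 17923 UMIs and the remaining 21821 cells 17088, and the median mitochondrial share was 5.62% in each. Between 48 and 92 members fell in each of the 10 classes of equal depth within which all levels were compared. In members the Col1a1 level was 10382 CPM against 17142 CPM in the remaining cells of equal depth, and no cell was lost to the Col1a1 limit in iWAT. The 2 libraries shared 8 cell barcodes.

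Of 10123 genes tested (5 CPM or more over all eligible cells, without the 4 rule genes), 205 (2.03%) were 1.5-fold or more higher in members and 273 (2.7%) were 1.5-fold or more lower. The fold is the number of UMIs observed in members over the number expected from the remaining cells of the same depth class. At a 2-fold limit 66 genes were higher and 75 lower. The median over all tested genes was 0.04 on the log2 scale. The genes were measured in the same cells that were ranked, so these counts describe the members and test nothing.

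Mcpt9 and Cma2, the named genes with the highest folds, belong to a group of serine protease genes of which 3 further members were named at lower folds. Mcpt9, annotated as a mast cell protease, was 6.43-fold (5.90 to 6.99) higher, at 43.8 against 6.82 CPM. Cma2, a chymase gene, was 5.20-fold (4.86 to 5.56) higher, at 69.2 against 13.3 CPM. Mcpt8, known from basophils, was 3.63-fold (3.51 to 3.76) higher at 254 against 69.9 CPM. The granzyme genes Gzmd and Gzme were 3.28-fold (2.98 to 3.60) and 2.84-fold (2.73 to 2.96) higher. All 5 lie on chromosome 14 (GRCm39) between 56188437 and 56370065, a span of 181629 bases. Other genes of that locus were too rare to be tested. Mcpt1 had 37 UMIs and was 2.32-fold (1.63 to 3.19) higher at 2.98 against 1.29 CPM, and Mcpt4 had 5 UMIs and a fold of 8.79 (2.86 to 20.5). Gzmn had 4 UMIs and a fold of 0.826 (0.225 to 2.12), and Gzmb 3 UMIs and a fold of 3.75 (0.772 to 10.9). Gzmc had 2 UMIs at 0.750 (0.0908 to 2.71), Cma1 2 at 2.32 (0.281 to 8.39) and Ctsg 0.

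Reads of near-identical genes limit these names. Of the 31-base words in the last 500 bases of the transcripts, 62.8% of those of Mcpt9 and 50.2% of those of Cma2 also occur in another gene, mostly in each other, and the figures were 40.0% for Gzmd and 48.3% for Gzme. How the authors' pipeline treated reads that match several genes is not given in the sources used here, so the split between Mcpt9 and Cma2, and between Gzmd and Gzme, is uncertain. Mcpt8 shared none of its words. Markers of mast cells were rare among the 12417025 UMIs of members. Kit had 6 UMIs at a fold of 2.00 (0.735 to 4.36), and Ms4a2 had 5 at 2.40 (0.778 to 5.59). Cpa3, a mast cell carboxypeptidase, had 0, but was at only 0.0215 CPM in the remaining cells. The rule had also removed cells with a UMI of the immune gene Ptprc from both groups.

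Named genes of matrix breakdown split in direction. Mmp13, the interstitial collagenase of rodents, was 3.63-fold (3.46 to 3.80) higher at 135 against 37.4 CPM. Mmp10, the stromelysin that activates other matrix metalloproteinases, was 3.10-fold (2.99 to 3.22) higher at 242 against 78.1 CPM. Serpinb2 and Plau, the inhibitor and the enzyme of urokinase proteolysis, were 2.75-fold (2.61 to 2.90) and 2.66-fold (2.56 to 2.77) higher. Mmp3 was 1.64-fold higher. On the other side stood the aggrecanase gene Adamts5 at 0.249 (0.220 to 0.281), with 21.8 against 87.6 CPM, together with Mmp23, Timp3, Adamts12 and Adamts1 at 0.550 to 0.657. Of 27 tested proteases and inhibitors, 5 were higher and 5 lower by 1.5-fold, with a median log2 fold of -0.03. Over all tested genes 2.03% were higher and 2.7% lower, and the iWAT list counts here and below stand beside these shares.

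Receptors and signalling genes were also among the 20 highest. Il1rl1, which encodes the receptor ST2 for interleukin 33, had the highest level of them, at 1421 CPM in members and 453 CPM in the remaining cells, a fold of 3.13 (3.09 to 3.18). It had a UMI in 90.1% of members and in 67.1% of the remaining cells. Il33 itself was 1.57-fold (1.38 to 1.76) higher. Sema7a, a membrane-anchored semaphorin, was 2.90-fold higher, Prkcb, a protein kinase C, 2.98-fold, and Dgkk, a diacylglycerol kinase, 4.49-fold. The chemokine Ccl2, which attracts monocytes, was 2.79-fold (2.74 to 2.84) higher at 936 against 335 CPM, and Ccl7, Ccl11 and Ptgs1 were 1.83-fold, 1.75-fold and 1.66-fold higher. These were the 4 genes of 18 tested in the list of chemokines and inflammation that passed 1.5-fold upward, and Tnfaip6 passed downward at 0.666. The chemokine genes Cxcl10 and Ccl6, which are not in this list, were among the 10 lowest named genes.

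Further named genes with higher levels stood at 19.0 to 30.5 CPM in members. Slco4a1, an organic anion transporter, was 4.47-fold (3.97 to 5.01) higher at 23.6 against 5.28 CPM, and Star, the cholesterol carrier of steroid synthesis, was 3.28-fold higher. Igsf11, an adhesion molecule, Npnt, a basement membrane ligand of integrins, and the long noncoding RNA Wincr1 were 3.12-fold, 2.80-fold and 2.81-fold higher. Chrna1, the alpha subunit of the muscle acetylcholine receptor, was 4.83-fold (4.29 to 5.42) higher, but 12.0% of its UMIs in members came from 1 cell, and without the cells of 5 or more Mylpf UMIs its fold was 3.01. For the other named genes with higher levels, no cell held more than 8.26% of the members' UMIs.

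Genes of ERK and AP-1 signalling stood at unequal levels. ERK is the kinase that FGF receptors activate, and AP-1 is the transcription factor formed by Fos and Jun proteins downstream of it. Of 28 tested genes of this list, 10 were 1.5-fold or more higher and 4 lower, with a median log2 fold of 0.34. With the top 1% of cells as members 8 were higher and 8 lower, while over all tested genes the share lower went from 2.7% to 5.51% and the share higher from 2.03% to 3.11%. The higher ones in the 675 members included, besides Il1rl1, the ERK phosphatase genes Dusp5 at 2.46 (2.35 to 2.58) and Dusp4 at 1.56, the chromatin proteins Hmga2 at 2.37 (848 against 358 CPM) and Hmga1 at 2.34, the EGF receptor ligands Ereg at 1.74 and Hbegf at 1.54, and the transcription factors Egr3, Etv4 and Fosl1 at 2.05, 1.61 and 1.53. The lower ones were Fos at 0.512 (179 against 349 CPM), Fosb at 0.564, Egr1 at 0.567 and the feedback inhibitor Spry1 at 0.637. Dusp6 and Spry4, further feedback genes of ERK, were at 1.29 and 1.37 and did not reach the limit.

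The FGF list held FGF ligands, FGF receptors and the syndecan and glypican genes (Sdc and Gpc), and none of its 13 tested genes was 1.5-fold higher. Fgfr1 was at 1.29 and Fgf2 at 1.20, while Fgf18 at 0.467, Sdc4 at 0.633 and Fgf21 at 0.659 were past the limit downward. None of these 3 was past it with Grem1 left out of the rule, where Fgf7 passed upward.

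Because of the AP-1 list, the 250 bases before each RefSeq transcript start were searched for the AP-1 letters TGANTCA (its own reverse complement). Any base was allowed at N, and the match of Serpinb2 has A there, while the other matches shown have C or G. A window was given for 16 of the 20 named genes with higher levels, 20 windows in all. The letters were in 5 of the 20 windows (25.0%), belonging to Mmp13, Mmp10, Chrna1 and Serpinb2 (the last with overlapping windows that share a match), in 2 of 9 windows (22.2%) of the named genes with lower levels (Aldh1a1 and Cxcl10), and in 6.75% of all 32851 windows. Of the rule genes, 1 of 2 windows of Il11 held them, and the windows of Grem1 and Mylpf did not. The other motifs searched, on both strands, were CCGGAAG of ETS factors (0 windows of the genes with higher levels, 2 of 9 or 22.2% of those with lower levels, 6.91% of all), GGAATG of TEAD factors (2 windows or 10% of those with higher levels, 2 of 9 or 22.2% of those with lower levels, 12.6% of all) and GTCTAGAC of SMAD factors (0 windows of either group, 0.167% of all). A match is a description of the letters in the window. The windows with the AP-1 letters, in capitals, are shown 5′ to 3′ from RefSeq for the genes with higher levels and Il11 and then for Aldh1a1 and Cxcl10, with 1 of the overlapping pair of Serpinb2, and each sequence was placed on GRCm39 by its only exact match:
Mmp13, chr9:7272264-7272513, plus strand, match starting 35 bases before the transcript start: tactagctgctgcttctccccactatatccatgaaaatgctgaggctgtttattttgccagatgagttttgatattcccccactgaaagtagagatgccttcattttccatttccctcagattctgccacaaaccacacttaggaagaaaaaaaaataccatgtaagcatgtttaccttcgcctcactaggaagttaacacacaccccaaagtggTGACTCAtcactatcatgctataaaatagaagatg
Mmp10, chr9:7502093-7502342, plus strand, match starting 63 bases before the transcript start: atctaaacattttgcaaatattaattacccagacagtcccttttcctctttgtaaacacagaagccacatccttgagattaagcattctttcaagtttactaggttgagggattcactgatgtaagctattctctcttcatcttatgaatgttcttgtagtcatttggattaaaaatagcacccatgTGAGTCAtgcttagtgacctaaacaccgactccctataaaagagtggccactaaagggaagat
Serpinb2, chr1:107438990-107439239, plus strand, match starting 181 bases before the transcript start: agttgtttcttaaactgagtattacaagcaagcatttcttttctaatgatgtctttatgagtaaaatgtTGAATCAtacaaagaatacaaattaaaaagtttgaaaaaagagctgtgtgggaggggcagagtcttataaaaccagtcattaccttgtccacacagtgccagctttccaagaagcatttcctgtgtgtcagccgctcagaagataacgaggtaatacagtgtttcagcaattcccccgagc
Chrna1, chr2:73410683-73410932, minus strand, match starting 211 bases before the transcript start: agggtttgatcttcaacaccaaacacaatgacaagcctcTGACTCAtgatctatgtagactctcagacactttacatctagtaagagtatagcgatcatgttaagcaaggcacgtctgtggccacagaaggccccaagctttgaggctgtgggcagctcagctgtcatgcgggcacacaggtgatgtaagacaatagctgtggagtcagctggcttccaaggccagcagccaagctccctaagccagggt
Il11, chr7:4781141-4781390, minus strand, match starting 98 bases before the transcript start: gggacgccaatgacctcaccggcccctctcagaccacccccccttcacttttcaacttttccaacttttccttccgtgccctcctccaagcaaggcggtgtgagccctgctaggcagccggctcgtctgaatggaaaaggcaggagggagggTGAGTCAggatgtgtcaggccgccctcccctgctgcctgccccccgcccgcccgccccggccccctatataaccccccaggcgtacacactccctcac
Aldh1a1, chr19:20469697-20469946, plus strand, match starting 57 bases before the transcript start: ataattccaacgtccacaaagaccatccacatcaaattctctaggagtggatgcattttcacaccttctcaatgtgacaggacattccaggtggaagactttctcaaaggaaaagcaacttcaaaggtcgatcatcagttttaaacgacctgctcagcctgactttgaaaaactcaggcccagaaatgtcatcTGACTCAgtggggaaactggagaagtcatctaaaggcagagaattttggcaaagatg
Cxcl10, chr5:92496749-92496998, minus strand, match starting 74 bases before the transcript start: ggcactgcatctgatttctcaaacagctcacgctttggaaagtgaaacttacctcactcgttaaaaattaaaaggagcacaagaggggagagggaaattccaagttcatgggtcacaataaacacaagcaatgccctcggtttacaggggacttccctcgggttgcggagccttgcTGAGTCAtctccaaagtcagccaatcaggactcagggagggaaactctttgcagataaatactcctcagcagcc

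Several genes of the contractile and matrix-producing state were lower, though most genes of these lists did not reach the limit. Of 23 tested contractile and actin genes 0 were 1.5-fold higher and 7 were lower, with a median log2 fold of -0.25. Acta2, smooth muscle actin, was at 0.573 (1686 against 2941 CPM), Cnn1, calponin, at 0.490, and Mylk, the kinase of the myosin light chain, at 0.339. Of 26 tested genes of TGF-beta response and matrix stiffening 0 were higher and 6 lower, with a median of -0.35. Itga11, a collagen receptor of fibroblasts, was at 0.270, Tgfb2 at 0.552 and Lox, which crosslinks collagen, at 0.645 (1924 against 2983 CPM). Inhba, the activin A subunit, was at 1.47 (2435 against 1658 CPM).

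Of 16 tested collagen genes other than Col1a1, 6 were lower and 1 higher, and the list median, -0.47, was the lowest among lists of 10 or more tested genes. Col3a1 was at 0.592 (1345 against 2272 CPM), Col1a2 at 0.647 and Col15a1 at 0.603, while Col27a1 was 1.59-fold higher. Of the 23 tested genes of BMP signalling and its antagonists, 5 were lower and 1 higher. Smad6 and Id4, both induced by BMPs, were at 0.624 and 0.608, the BMP binding protein Bmper at 0.542, and the coreceptor gene Rgmb was 1.56-fold higher. The direct BMP targets Id1, Id2 and Id3 were at 0.917, 0.805 and 0.726.

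The balance of these lists changed without Grem1 in the rule, which also replaced most of the members, and the cause was not tested. When Grem1 was left out of the rule, 199 of the 675 members stayed. Over all tested genes 1.73% were then higher and 1.49% lower. The contractile genes past the limit downward numbered 0, the TGF-beta and matrix genes 1 with 2 others (Inhba and Tgfb1) now higher, the collagens 1 with 0 higher and the BMP genes 1 with 1 higher (Gdf10), and the list medians were -0.07, -0.18, -0.06 and -0.04. Of the 10 higher ERK and AP-1 genes 7 stayed past the limit (Dusp5, Egr3, Ereg, Hbegf, Hmga1, Hmga2 and Il1rl1), of the 4 lower ones 3 stayed (Egr1, Fos and Fosb) and Jun was added, and the list median was 0.15. Of the 5 higher proteases and inhibitors Mmp13, Mmp3 and Plau stayed, and of the 5 lower ones Adamts1, Adamts5 and Mmp23.

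The named genes also moved toward the level of the remaining cells without Grem1 in the rule. The median fold of the 20 with higher levels went from 3.13 to 2.26, and 9 of them fell by over 1.5 times. Mcpt9 was then at 3.22, Cma2 at 2.17, Dgkk at 2.16, Star at 2.14, Igsf11 at 2.00, Il1rl1 at 1.97 and Ccnd1 at 1.58, while Mmp10 at 1.27 and Serpinb2 at 1.39 missed the limit. Mcpt8 at 2.97, Gzmd at 3.03, Gzme at 2.72 and Slco4a1 at 3.70 moved by less. Of the 10 with lower levels, 6 moved by over 1.5 times and 6 stayed past the limit.

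**Figure D2:**
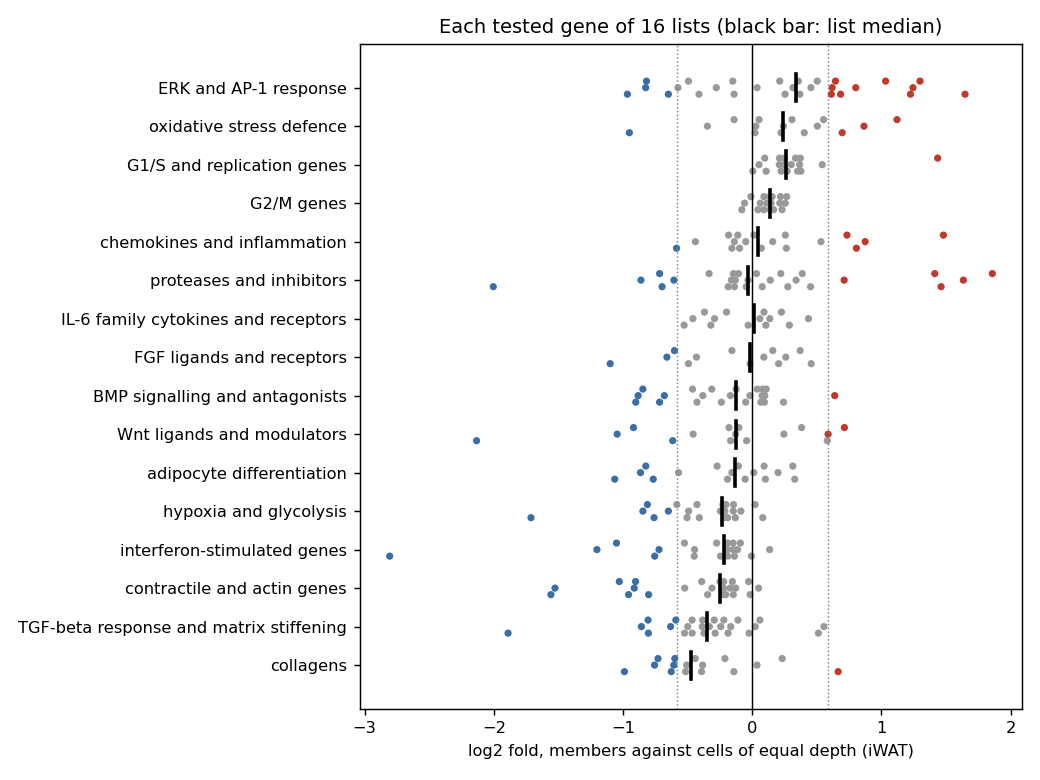
Log2 fold (x axis) of each tested gene in 16 of the gene lists (rows) in members against the remaining iWAT cells of equal depth; red points are 1.5-fold or more higher, blue points 1.5-fold or more lower, and the black bar is the list median. The ERK and AP-1 list has points on both sides and a median of 0.34, and the collagen list has the leftmost median, -0.47.

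Lists of other programmes differed in how many genes passed the limit. Over all tested genes 2.03% were higher and 2.7% lower, so counts of 0 to 2 genes in a list are not read as a direction. Among 15 tested genes of oxidative stress defence, Srxn1 at 2.17 (2.05 to 2.31), Nqo1 at 1.82 and Hmox1 at 1.62 (423 against 261 CPM) were higher. Sod3, the extracellular superoxide dismutase, was lower at 0.517. With Grem1 left out of the rule Srxn1 and Nqo1 stayed past the limit, Hmox1 and Sod3 did not, and Mt2 passed it downward. Of 22 tested genes of hypoxia and glycolysis 0 were higher and 5 lower, among them Ndufa4l2 at 0.305 and Bnip3 at 0.570. Of 16 tested genes of adipocyte differentiation 0 were higher and 4 lower, with Fabp4 at 0.549 and Cebpd at 0.565, while Pparg was at 0.876. Of 20 tested interferon-stimulated genes 0 were higher and 5 lower, a number that went from 1 to 9 with the other settings tried. None of 14 tested genes of the IL-6 family and its signalling, the family of Il11, passed the limit, and the receptor genes Il11ra1 and Il6st were at 0.871 and 0.727. With Grem1 left out of the rule Il6 and Clcf1 passed it upward and Socs3 downward. Of 15 tested Wnt ligands and modulators 2 were higher (the transcription factor genes Tcf7 at 1.64 and Lef1 just past the limit) and 4 lower (0 of these 6 with Grem1 left out of the rule), of 15 YAP and TEAD targets 1 was higher (Fjx1 at 1.84) and 2 lower (Amotl2 and Tgfb2), of 18 genes of the integrated stress response 0 were higher and 2 lower (Vldlr and Ddit4), and of 17 p53 targets and cell-cycle inhibitors 0 were higher and 1 lower (Btg2). Of 5 tested genes of enkephalin processing and neuropeptides only the protease gene Pcsk5 passed the limit, at 0.523. None of the genes named here from the YAP, stress response, p53 and enkephalin lists passed the limit with Grem1 left out of the rule. Atf3 and Trib3 of the stress response list then passed it downward.

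Cell cycle genes were close to the level of all genes apart from Ccnd1. Ccnd1, cyclin D1, which growth factors induce to start the cycle, was 2.70-fold (2.62 to 2.79) higher at 319 against 118 CPM. It was the only one of 18 tested G1/S and replication genes past 1.5-fold, although all 18 were above 1 (median log2 fold 0.26). Of 18 tested G2/M genes none passed the limit (median 0.14). With each cell thinned to 5000 UMIs, 72.7% of members (69.2 to 76.1) and 69.8% of the remaining cells showed at least 1 UMI of the cycling genes Birc5, Ccnb1, Cdk1, Mki67, Top2a and Ube2c.

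Markers of progenitor subsets were mixed. Ly6a, which encodes the stem cell antigen Sca-1, was at 0.240 (0.215 to 0.268), with 26.5 against 110 CPM, although 47.6% of the words at its transcript ends also occur in another gene. Dpp4, a marker of early interstitial progenitors, was at 0.613, Gdf10 at 0.535 and Ly6c1 at 0.404. Sema3e, Cd24a and Il33 were 1.84-fold, 1.57-fold and 1.57-fold higher. In all 3 of 22 tested markers were higher and 6 lower, which became 6 and 3 with Grem1 left out of the rule. Pdgfra and Pdgfrb, receptors found across the fibroblast lineage, were at 0.913 and 0.952, and Spp1, osteopontin, was 2.26-fold higher at 5004 against 2211 CPM.

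The named genes with lower levels further included Cemip, a hyaluronan-degrading protein, at 0.2 (0.168 to 0.235) with 11.6 against 58.1 CPM, and Ccn5, a secreted matricellular protein, at 0.228 (0.191 to 0.269). Gjb2, connexin 26, at 0.0997, Aldh1a1, a retinaldehyde dehydrogenase, at 0.250, the G protein regulator Rgs4 at 0.260 and the aldolase Aldoc at 0.269 had 13 to 21 UMIs in all members. The chemokines Cxcl10 at 0.143 and Ccl6 at 0.148 had 20 and 9 UMIs, and 30% of the Cxcl10 UMIs came from 1 cell. With Grem1 left out of the rule Gjb2 was at 0.537, Ccn5 at 0.838, Aldh1a1 at 0.776 and Rgs4 at 1.03, the last on the other side of 1. When Pdgfra was required, Cxcl10 was at 1.11 and Ccl6 at 0.528. The levels of these rare genes rest on few molecules.

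Markers of most other cell types were low, while some skeletal muscle genes were high in a few cells. The rule had removed cells with a UMI of Epcam, Ptprc, Pecam1 or Sox10 from members and remaining cells alike. Low epithelial, immune, endothelial and Schwann markers were thus partly set by it. The summed level of 11 epithelial markers was 51.8 CPM in members and 79.3 CPM in the remaining cells of equal depth. That of 10 immune markers was 17.4 and 23.3 CPM, and that of 10 endothelial markers 30.9 and 29.9 CPM. The 8 mural markers summed to 114 and 201 CPM, the 9 mesothelial markers to 32.8 and 46.2 CPM and the 9 Schwann markers to 696 and 545 CPM, the last almost all from Cryab, a stress protein that fibroblasts also make. Ndufa4l2, at 37.7 and 124 CPM, carried nearly the whole gap of the mural sums. Krt19, at 28.7 and 41.8 CPM, held most of the mesothelial sums and is also in the epithelial list. Of these lists no member held a UMI of Tie1 and Cldn5 (endothelial), Kcnj8 and Higd1b (mural), Upk3b, Lrrn4 and Gpm6a (mesothelial), or Foxd3 and Gfra3 (Schwann). These genes were at 0.0809 CPM or less in the remaining cells, so hardly any UMI was to be seen in members and their absence says little. Few markers of these lists reached 5 CPM. None of those was higher by 1.5-fold, and those lower were Krt8 and Krt18 of 4 tested epithelial markers, Ndufa4l2 of 4 mural and Ngfr of 2 Schwann markers, with none of the 1 immune, 1 endothelial and 1 mesothelial marker tested. Under 5 CPM, the mural marker Rgs5 with 45 UMIs was at 1.52 (1.11 to 2.03) and the mesothelial marker Bnc1 with 15 UMIs at 2.41 (1.35 to 3.98). Of 3 tested tendon and cartilage markers Tnc, tenascin C, was higher at 1.52, of 2 bone markers Spp1 and of 2 skeletal muscle genes Chrna1. Some skeletal muscle genes under 5 CPM over all eligible cells were far higher in members. Myog had 215 UMIs (17.3 against 0.0109 CPM), Myl1 151 (12.2 against 0.0170 CPM) and Mymk 92 (7.41 against 0.00450 CPM). Without the cells of 5 or more Mylpf UMIs each of these was at 0 in members. Of 13 tested mesenchymal markers Lum, the proteoglycan lumican, was higher at 1.62 and Col1a2, Col3a1 and Ly6a were lower.

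The detection of named genes was read beside that in 95 cells of the library with 2 or more UMIs of the epithelial gene Epcam, at most 1 Col1a1 UMI and a median of 8581 UMIs. After thinning to 5000 UMIs, Grem1 and Il11, whose detection in members the rule sets, had a UMI in 4.21% and 3.16% of the Epcam cells. Il1rl1 had a UMI in 80.0% of members (76.8 to 83.0) and 5.26% of the Epcam cells (1.73 to 11.9), and Mcpt8 in 43.3% and 3.16%. For Dgkk, with 9.19% of members (7.11 to 11.6) and 7.37% of Epcam cells (3.01 to 14.6), and for Igsf11, with 10.1% and 7.37%, the intervals overlapped. Npnt and Ccnd1 were detected more often in the Epcam cells, in 35.8% and 71.6%, than in members, in 12.7% and 59.0%, so these cells give no background for them.

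The named genes followed the score of the 4 rule genes below the cut as well. Eligible cells were set in 6 bins, from the 6275 cells with no UMI of the 4 genes through bins bounded by 114, 362 and 912 CPM and the cut, to the members. Of the 20 named genes with higher levels, 18 increased over all 5 steps between bins, all but Star and Serpinb2. Of all tested genes 11.4% did so. The named genes had been chosen for their level in the last bin against the cells of the other bins. Over the first 4 steps, which leave the members out, 18 of the 20 increased. The choice used these cells too, so this describes the order and tests nothing. Over these 4 steps 17.4% of all tested genes increased, and 153 (74.6%) of the 205 genes past 1.5-fold did. Il1rl1 went from 0.538 times the level of all eligible cells of equal depth in cells without a rule UMI to 0.643, 0.912, 1.47, 2.07 and 2.93, and Mcpt8 from 0.369 to 3.35. Of the 10 named genes with lower levels, 8 decreased over all 5 steps, all but Cxcl10 and Ccl6, and Adamts5 went from 1.44 to 0.255. Over all 5 steps 7.40% of all tested genes decreased. Over the first 4 steps 8 of the 10 named genes decreased, beside 9.76% of all tested genes and 199 (72.9%) of the 273 genes past 1.5-fold. In the bin next to the members Mcpt8 was at 2.63 and Il1rl1 at 2.07.

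**Figure D3:**
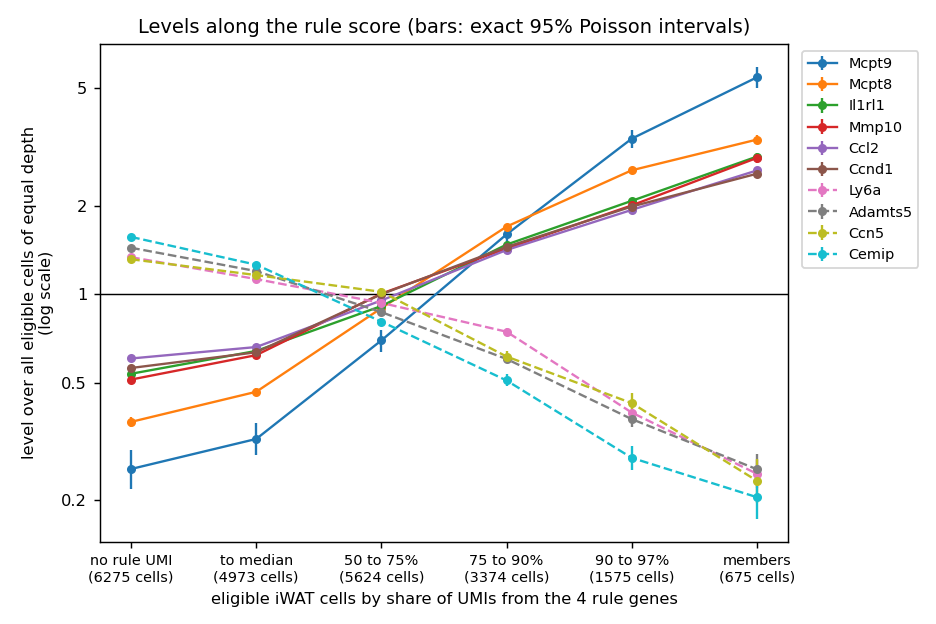
Level of 10 named genes (y axis, log scale, relative to all eligible iWAT cells of equal depth) in 6 bins of cells ordered by the share of UMIs from the 4 rule genes (x axis); bars are exact 95% Poisson intervals. Genes with solid lines increase from left to right, from 0.256 to 5.44 for Mcpt9, and genes with dashed lines decrease, from 1.57 to 0.205 for Cemip.

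Members were compared with other stromal states scored the same way, each as the top 3% of eligible cells, so that 3% of members would be shared by cells drawn without regard to the score. The shared cells were 3 of 675 (0.444%, 0.0917 to 1.29) for contractile cells scored on Acta2, Tagln, Cnn1 and Actg2, 5 (0.741%) for cells scored on Fabp4 and Cxcl14, 6 (0.889%) for Dpp4 and Pi16, 8 (1.19%) for Gdf10 and Meox2, and 12 (1.78%, 0.922 to 3.08) for cells scored on 4 interferon-stimulated genes. Over cells, the median contractile score was 2691 CPM in members and 4306 CPM in the remaining cells, that of Fabp4 and Cxcl14 93.4 and 166 CPM, and that of the interferon-stimulated genes 126 and 178 CPM.

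Members led by Grem1 and those led by Il11 were compared with the same remaining cells. Among members with under 5 Mylpf UMIs, 582 had more Grem1 than Il11 UMIs and 88 had more Il11, and 80 of these 88 had both. The 1.5-fold limit was passed upward by 209 of all tested genes (2.06%) in the Grem1-led cells and by 444 (4.39%) in the Il11-led cells. Downward the genes numbered 318 (3.14%) and 770 (7.61%). The groups held 10718380 and 1637765 UMIs, so that counting error is wider in the Il11-led cells, and the larger counts there are not read as a difference between the groups. The named genes had been chosen for their folds over all members, most of which were Grem1-led, so that their folds there were set by the choice. The Il11-led cells were part of that choice too, so their folds are no independent support. In the Il11-led cells 19 of the 20 with higher levels and 9 of the 10 with lower levels were past 1.5-fold. Several of the lower ones rest on few UMIs in these cells: Aldoc on 0, Gjb2 and Ccl6 on 1 each, Aldh1a1 and Rgs4 on 2 each and Cxcl10 on 5. Mcpt8 was at 3.65 (3.51 to 3.79) in the Grem1-led cells and at 3.57 (3.23 to 3.93) in the Il11-led cells. Serpinb2 was the exception upward, at 3.02 (2.86 to 3.19) and 0.943 (0.728 to 1.20), and Ccn5 the exception downward, at 0.141 (0.110 to 0.176) and 0.806 (0.622 to 1.03). Ccnd1 was at 2.88 and 1.65 (1.48 to 1.84).

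Outside the named genes, some of the widest gaps between the groups of members are given. They were chosen after their values were seen, and with 88 cells in the smaller group single cells weigh heavily. Tnfsf8, the CD30 ligand, was at 3.22 in the Il11-led and 0.427 in the Grem1-led cells (64.7 and 8.49 CPM), with at most 15.1% of the Il11-led UMIs from 1 cell. Igfbp5, a binding protein of insulin-like growth factors, was at 4.77 and 1.28 (485 and 132 CPM). Esm1, an endothelial proteoglycan, was at 7.46 and 1.75, but 39.9% of its Il11-led UMIs came from 1 cell. Tspan18 was at 1.99 and 0.275. Mylk, Gdf10 and Sod3, which were lower over all members, were not lower in the Il11-led cells. There they were at 1.08 (0.813 to 1.40), 1.72 (1.22 to 2.35) and 1.39 (1.22 to 1.57), and in the Grem1-led cells at 0.226, 0.358 and 0.386. In the other direction, Irx1, a homeobox gene, was at 0.110 and 0.550.

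The same rule in the iBAT library gave 773 members of 25763 eligible cells, and there the Mylpf cells were many. In iBAT 163 members (21.1%) had 5 or more Mylpf UMIs and held 47157 of its 47227 Mylpf UMIs in members. Under that rule 346 of 10234 tested genes (3.38%) were 1.5-fold or more higher and 391 (3.82%) lower. Without Mylpf in the rule and without the cells of 5 or more Mylpf UMIs, a setting chosen after seeing the data, iBAT gave 766 members, with 151 of 10203 genes (1.48%) higher and 241 (2.36%) lower. In these iBAT members Grem1 stood at 3723 against 616 CPM and Il11 at 757 against 57.8 CPM.

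Most of the named iWAT genes that reached 5 CPM in iBAT were on the same side there. Of 14 such genes with higher levels 13 passed 1.5-fold in the same direction in iBAT without Mylpf, and of 6 with lower levels 4 did, while under the unchanged rule 11 of 14 and 5 of 6 did. Mmp13 and Mmp10 were 5.14-fold (4.74 to 5.55) and 5.18-fold (4.79 to 5.60) higher in iBAT, at 29.3 and 29.9 CPM in members, and Il1rl1 was 2.60-fold (2.58 to 2.63) higher, at 1961 against 754 CPM. Npnt was at 1.13 (1.08 to 1.18), Ly6a at 0.684 (0.671 to 0.697) and Cemip at 0.839 (0.806 to 0.872), short of the limit. Mcpt9 and Cma2 were under 5 CPM in iBAT, at 0.561 and 1.26 CPM in members. Over the 9718 genes tested in both depots, 76 were higher in both, which is 43.7% of the 174 in iWAT and 59.4% of the 128 in iBAT. Of all these genes, 1.32% were higher in iBAT. Lower in both were 83, which is 38.6% of 215 and 44.6% of 186, beside 1.91% of all these genes lower in iBAT. Past the limit in opposite directions were 0 genes, and with such small shares few would be seen without any relation. Grem1 and Il11 supplied most of the score in both libraries, and Pearson's r between the log2 folds across these genes, which are not independent replicates, was 0.62.

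The lists were set side by side in the depots, with the iBAT setting without Mylpf. Of all genes tested there 1.48% were higher and 2.36% lower. All 18 G2/M genes were below 1 in the iBAT members and 10 were past the limit downward (median log2 fold -0.62), among them Ube2c at 0.565, Ccnb1 at 0.572 and Aurka at 0.574, where none was past it in iWAT. The 7 contractile genes lower in iWAT were also lower in iBAT. Of the 6 lower genes of TGF-beta response and matrix stiffening 1 was lower in iBAT, and Itga11 was at 1.24 there, while Inhba at 1.68 and Tgfb1 at 1.56 were higher. The collagen list had 6 lower genes and a median of -0.47 in each depot, and 2 of the 6, Col3a1 and Col14a1, were the same, while Col7a1 was 2.07-fold higher in iBAT and at 1.03 in iWAT. In the IL-6 list Lif was 2.48-fold higher in iBAT, at 65.8 against 26.6 CPM, and at 1.22 in iWAT, and Socs3 was at 0.637 in iBAT and 0.694 in iWAT. The ERK and AP-1 list had 9 higher and 3 lower genes in iBAT, of which 7 and 3 were those of iWAT.

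**Figure D4:**
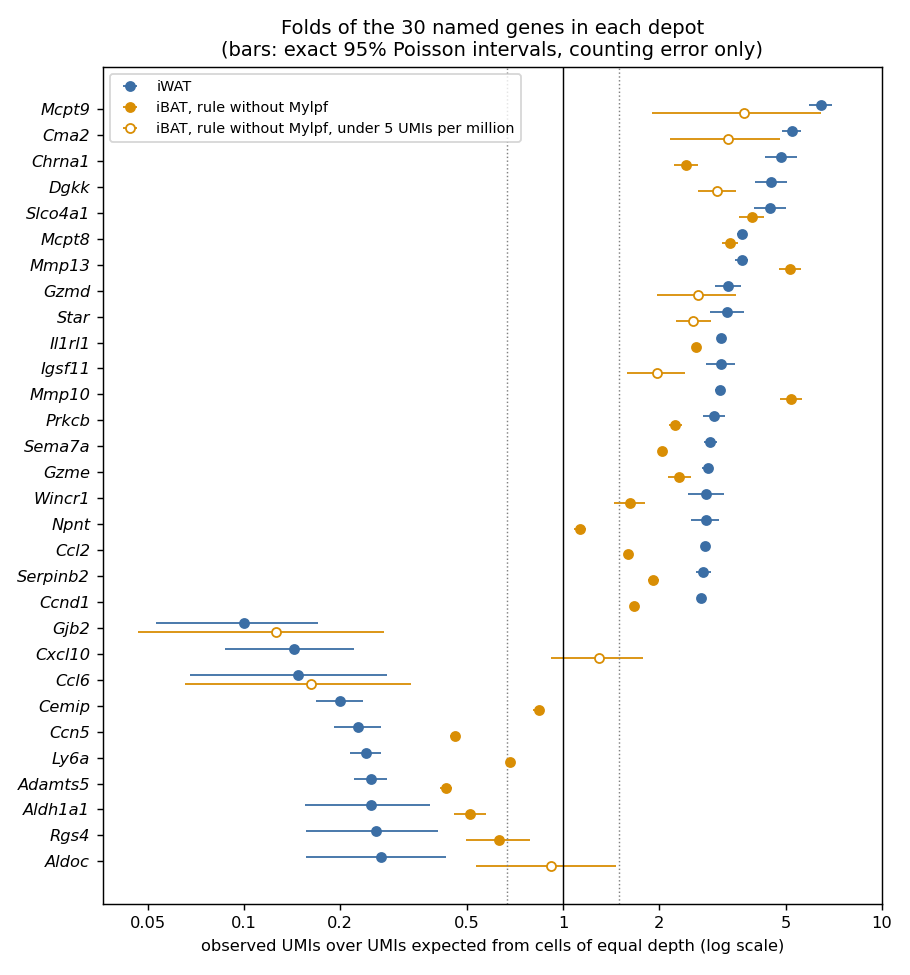
Folds (x axis, log scale) of the 30 named genes in members against the remaining cells of equal depth in iWAT (blue) and in iBAT with Mylpf left out of the rule (orange, open where the gene is under 5 CPM in iBAT); bars are exact 95% Poisson intervals and dotted lines mark 1.5-fold. All blue points lie past the dotted lines because the genes were chosen for it, and among the filled orange points Npnt at 1.13, Ly6a at 0.684 and Cemip at 0.839 lie between them.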

How the data were processed

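Single-cell whole-transcriptome libraries (BD Rhapsody, a microwell system) were analysed from the matrices of raw UMI counts per gene and cell that the authors deposited without normalization. The authors aligned reads on a commercial cloud pipeline. The submitters' processing notes name mm39 and Seurat 5.0.0, without roles. Depth was 503611913 UMIs in iWAT and 815235820 in iBAT, at least 5790 and 10532 per barcode. No doublet caller was run, but cells with a lineage UMI were removed (7248 in iWAT), and an alternative left out the deepest cells.

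UMIs were summed over members and divided by those expected from the remaining eligible cells in the same of 10 UMI classes, with exact Poisson intervals on the observed count, and exact binomial intervals for shares (Python 3.11.15, numpy 2.4.6, scipy 1.17.1, pandas 2.3.3). The code was tested on simulated data. Named genes were the 20 highest and 10 lowest folds (1.5 or more, interval clear of 1, same side in at least 8 of 10 classes, no Gm or Rik symbols), besides list members. The members and all 31 lists were chosen with earlier results of these data known. Coordinates come from GENCODE M39 (GRCm39), and promoter windows from RefSeq (GRCm38.p6). A total of 20 alternatives was tried.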

Additional observations from a re-analysis of the deposited data

How the results depend on the processing

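The 205 higher and 273 lower genes in iWAT stayed within 1.5 times their number under 15 and 13 of 20 alternatives. The numbers higher and lower were 315 and 558 with the top 1% of cells as members, 66 and 75 at a 2-fold limit, 481 and 619 with a filter of 1 CPM, 89 and 139 with 20 CPM, and 3466 and 1787 with no filter beyond 1 UMI. With the top 10% the number lower was 173, and with Grem1 left out of the rule it was 151. In iBAT the numbers went from 346 and 391 to 151 and 241 without Mylpf and Mylpf-rich cells.

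Of the 20 named genes with higher levels, 18 were past 1.5-fold under each of 16 alternatives that change a fold. With Grem1 left out of the rule 9 fell by over 1.5 times, among them Mcpt9 from 6.43 to 3.22 and Cma2 from 5.20 to 2.17, and Mmp10 and Serpinb2 were at 1.27 and 1.39. Chrna1 ranged from 2.80 when Pdgfra was required to 8.80 with the top 1%, Mmp13 was at 2.30 with the top 10%, and Star at 2.14 with the top 1%. Of the 10 with lower levels, 6 stayed past the limit. Rgs4 was at 1.03, Ccn5 at 0.838 and Aldh1a1 at 0.776 with Grem1 left out, and Cxcl10, with 20 UMIs in members, missed the limit under 5 alternatives and was at 1.11 when Pdgfra was required, where Ccl6 was at 0.528. Without Grem1 the lower genes of the FGF list and of the Wnt list numbered 0, and the median of the progenitor markers went from -0.16 to 0.17. The cause of these changes was not tested. No result carries replicate error, since each depot is 1 library, and the rare genes are limited by their counts.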
